A study of Mus musculus with 2 samples.

Results

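Extraembryonic mesoderm is the inner layer of the mouse yolk sac, the membrane that feeds the early embryo. It lines the outer visceral endoderm, lays down matrix between the layers, and houses the first blood vessels and blood cells. Its cells receive Hedgehog signals made by the endoderm, and are known for making BMP4 and other growth factors that act on vessels and blood. Some mesoderm cells near the embryo also express genes of heart muscle. Cells that reached a bound on such transcripts were set apart here, so that what follows describes the mesoderm cells below it.

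The cells came from yolk sacs of E8.75 mouse embryos that carried Ttr-Cre/+ and R26lsl-rtTA-EGFP/+. Ttr is an endoderm gene, so its regulatory sequence directs Cre, and through it the rtTA-EGFP allele, to the endoderm lineage, and every cell compared below has this genotype. No treated or mutant group was analysed here. Cells of 3 tagged samples (Ctrl1, Ctrl2 and Ctrl3, here tagged samples 1, 2 and 3) were marked with CellPlex oligonucleotides, pooled, and sequenced as a single 10x library that counts unique molecular identifiers (UMIs), each standing for 1 captured transcript.

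The mesoderm cells were chosen by their own measured transcripts. A cell needed 500 or more genes detected and mitochondrial UMIs of 10% or less, with Hand1, Vcan and Foxf1 together at 0.03% or more of its UMIs and at least 3 UMIs of Foxf1 and Vcan. It also had to have fewer than 5 UMIs of the contractile genes Ttn, Myh6 and Tnnt2, at most 1 UMI of the endothelial gene Cdh5, under 0.3% of UMIs from the endoderm genes Ttr, Apob and Apom, and under 3% from 7 globin genes. This chose 126 of the 1740 cells that passed the quality filter, from 1817 deposited cells. Tagged samples 1, 2 and 3 gave 31, 47 and 48 of them, which is 7.0%, 7.65% and 7.03% of their filtered cells (7.23% ± 0.37, SD, n = 3). The 95% exact binomial intervals, which cover counting error only, ran from 4.80 to 9.79%, 5.68 to 10.0% and 5.23 to 9.21%, so the shares overlapped widely.

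The 126 mesoderm cells had a median of 34952 UMIs (7124 to 84259) and 5647 genes per cell, and summed to 1184469, 1554948 and 1656500 UMIs in the 3 tagged samples. In each of them the leading tag was that of its own sample, 0 barcodes were shared between matrices, and the doublet caller marked 1 of the 126. Xist and Y-linked transcripts both occurred among the mesoderm cells of each tagged sample, so the number of embryos behind a tag was not settled. The replicates are tagged samples, and p-values measure the spread between them.

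The other 1614 filtered cells were 40 contractile mesoderm cells (the same bounds but 5 or more contractile UMIs), 121 cells in an endothelial gate, 435 in a visceral endoderm gate, 664 in an erythroid gate and 354 remaining cells. Erythroid cells made up 19.9%, 36.8% and 51.2% of tagged samples 1, 2 and 3, so the make-up of the comparison set differed between samples.

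The markers describe the cells and do not test the label. Of 5 markers set for extraembryonic mesoderm, Hand1, Vcan and Foxf1 had chosen the cells and are given as a description only. Hand1, a transcription factor of extraembryonic and heart mesoderm, stood at 480, 410 and 467 UMIs per 1000000 of the mesoderm UMIs (CPM), against 45.7, 22.1 and 22.7 CPM in the other cells. Foxf1, a mesodermal target of Hedgehog signalling, stood at 136, 156 and 164 CPM against 8.85, 5.18 and 7.35. Vcan, which encodes the matrix proteoglycan versican, stood at 356, 354 and 377 CPM against 15.7, 10.8 and 10.6.

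The other 2 markers played no part in the rule, but were set with earlier results of these data known. Tdo2, which encodes tryptophan 2,3-dioxygenase, stood at 254, 338 and 312 CPM in the mesoderm cells and at 21.6, 10.2 and 23.5 CPM in the other cells. All 3 mesoderm sums lay above all 3 of the other sums (log2 difference 3.85, SE 0.27, adjusted p = 6.51e-07, edgeR quasi-likelihood test). Pmp22, which encodes a tetraspan membrane protein also known from myelin, stood at 945, 844 and 910 CPM against 47.8, 37.4 and 38.9 CPM (log2 difference 4.26, SE 0.10, adjusted p = 1.37e-09), again without overlap.

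A common depth of 15000 UMIs per cell left out 6 shallower mesoderm cells. At that depth a Tdo2 UMI was found in 82.5% of mesoderm cells (89.7% at full depth). In the visceral endoderm gate the share was 2.86% (6.90% at full depth). The median depths of these sets were 34952 and 57995 UMIs. Whether the Tdo2 UMIs of the visceral endoderm gate are free RNA was not tested. For Pmp22 the shares were 100% and 10.2% (100% and 31.7% at full depth). Every mesoderm cell thus held Pmp22 transcripts, and most held Tdo2. Of the contractile cells, 95% held Pmp22 and 87.5% Tdo2 at the common depth. In the endothelial gate 59.4% held Pmp22 (74.4% at full depth) and 3.96% Tdo2. The Pmp22 shares were 8.29% in the erythroid gate and 10.4% in the remaining cells.

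**Figure D1:**
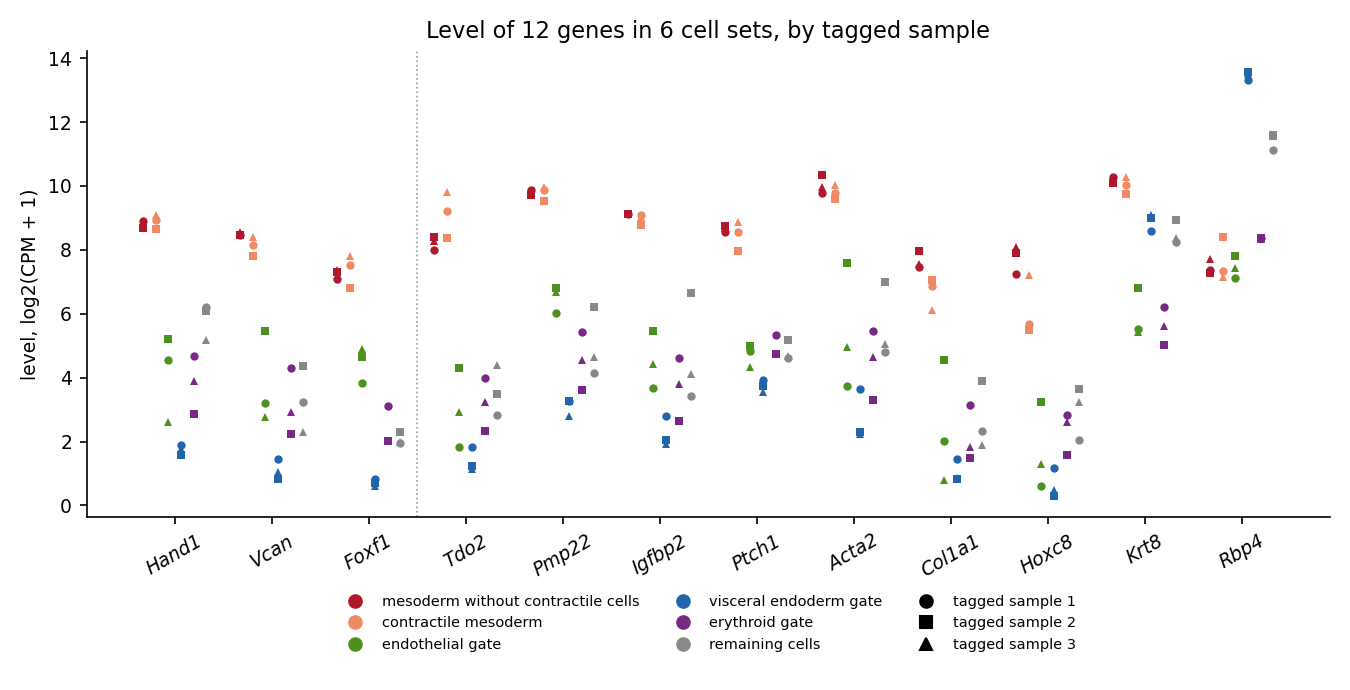
Level of 12 genes as log2(CPM + 1) in 6 cell sets, with 1 point per tagged sample (shapes) and set (colours). Hand1, Vcan and Foxf1, left of the dotted line, chose the mesoderm cells. Tdo2, Pmp22, Igfbp2, Ptch1 and Acta2 sit at like heights in the mesoderm cells and in the contractile mesoderm and lower in the 4 other sets, while Rbp4 is highest in the visceral endoderm gate.

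Some markers of other cell types had 0 UMIs, while others of the same lists did not and some lists were high. Myh6 (1 of 7 contractile markers) and the smooth muscle genes Cnn1 and Myh11 (2 of 5) had 0 UMIs in the mesoderm cells. So did the endothelial gene Emcn (1 of 8 markers), the mesothelial gene Msln (1 of 4) and 5 of 7 markers of blood progenitors and megakaryocytes (Ptprc, Pf4, Gp9, Spi1 and Tyrobp). The allantois markers Tbx4, Hoxa11 and Hoxd13 (3 of 5) were also at 0. A count of 0 in these sums allows up to 0.682 CPM, for counting error only. The 4 mesothelial markers summed to 5.91, 11.6 and 18.1 CPM. Their sums were 13.3 to 16.7 CPM in the contractile mesoderm and at most 1.45 CPM in the 4 other sets. The 5 smooth muscle markers, which include Acta2 and Tagln, summed to 1278, 1714 and 1361 CPM, close to the contractile mesoderm (1230 to 1334 CPM) and above the 4 other sets (7.32 to 265 CPM). The 5 allantois markers summed to 41.8 to 113 CPM, above the sums of every other set (at most 27.3 CPM). Hoxa13 gave 1 UMI in the mesoderm cells, so their allantois sum was almost wholly Pitx1. The 5 markers of maternal decidua, a list that shares genes with the matrix list below, summed to 194 to 546 CPM. The 9 visceral endoderm markers summed to 434 to 503 CPM and the 7 erythroid markers to 1559 to 3411 CPM. For endoderm and globin genes the rule itself held these sums down, and the part that free RNA has in them was not tested.

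The cells nearest to the bounds show what the rule decided. Of the cells that failed a single criterion, 30 failed only the bound on Foxf1 and Vcan UMIs, 40 only the contractile bound, 11 only the globin bound, 3 each only the mesoderm share and the Cdh5 bound, and 2 only the endoderm bound. Of the mesoderm cells, 49 had 0 contractile UMIs and 13 had 4, directly under the bound of 5, where 5 cells lay outside. The 30 cells short of Foxf1 and Vcan had as much Hand1 as the mesoderm cells (454 against 450 CPM, summed over cells) and a median depth of 31619 UMIs. They had less Tdo2 (64.8 against 306 CPM), Pmp22 (268 against 896) and Ptch1 (46.3 against 408). Tdo2 UMIs were found in 10 of these 30 cells, Pmp22 in 12, Acta2 in 15 and Ptch1 in 20, so the 30 cells were mixed in these genes.

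Against all other cells, 2891 genes were higher in the mesoderm cells (24.6% of 11759 tested) and 3233 lower (27.5%), so that 52.1% of genes were called at an adjusted p of 0.05 (edgeR quasi-likelihood test, Benjamini-Hochberg adjustment). A single call thus says little here, and the size of a difference says more. The cells were sorted by expression, and the tests, which leave out the 17 genes of the rule, show how evenly a difference held over 3 tagged samples, not that the cells form a type. Scaling by library size alone in place of the trimmed mean of M-values raised the median of all genes by 0.19 log2 units and the share of calls that were higher from 47.2% to 61.1%. All values below are relative to the former scaling, under which the median gene differed by -0.05.

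The lists of genes below were chosen with earlier results of these data known. Among transcription factors of mesoderm, 21 of 34 tested were higher and 7 lower, with a median log2 difference of 1.60 (0.74 without the filter on low counts). Snai2, a repressor of epithelial genes, stood at 132, 149 and 106 CPM in the mesoderm cells and at 6.0, 5.30 and 4.76 CPM in the others (log2 difference 4.41, SE 0.15, adjusted p = 9.33e-09). Hand2, a relative of Hand1, stood at 57.0 ± 6.22 against 3.13 ± 0.69 CPM (SD, n = 3; log2 difference 4.02), and Tbx20, a T-box factor, at 62.8 ± 6.27 against 3.87 ± 0.926 (log2 difference 3.86). Meis2, a homeobox factor, was higher by 2.40. The 7 lower genes included Id genes, Id1 (-2.54), Id2 (-2.79) and Id3 (-1.65), which encode inhibitors of bHLH factors and are targets of BMP signalling, and Gata4 (-1.96), an endoderm and heart factor.

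The Hox genes, which mark position along the body axis, were among the largest differences. Of 39 Hox genes, 16 passed the filter on low counts, and these 16 were higher. The filter keeps genes that are high in either set, so this count is a description only: the median log2 difference was 3.37 with the filter and 2.14 without it. Hoxc8 led at 151, 239 and 269 CPM against 4.21, 3.83 and 6.71 CPM (log2 difference 5.28, SE 0.27, adjusted p = 6.15e-08), with no overlap. Hoxc9 stood at 18.6, 33.4 and 38.6 CPM against 0.484, 0.611 and 0.735 (log2 difference 5.41), and Hoxb2 at 54.6 ± 5.68 against 6.62 ± 2.19 CPM (log2 difference 2.89). The genes of the HoxA and HoxD groups gave few counts: Hoxa7, Hoxa9, Hoxa10, Hoxd4 and Hoxd8 had 0 UMIs in the mesoderm cells.

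Matrix genes moved together. Of 36 interstitial matrix genes tested, 33 were higher and 0 lower, with a median log2 difference of 2.85. Col1a1 and Col3a1, which encode chains of the fibrillar collagens, stood at 175, 249 and 187 and at 83.6, 331 and 197 CPM in the mesoderm cells, against 5.59 ± 2.06 and 5.07 ± 1.58 CPM in the others (log2 differences 5.02 and 5.13, SE 0.25 and 0.42). Col3a1 varied about 4-fold over the tagged samples, and Lum, a small proteoglycan that binds collagen fibres, was also uneven (50.7, 331 and 189 CPM), yet both stayed above every sum of the other cells. Serpinh1, the collagen chaperone, stood at 821, 1231 and 977 CPM (log2 difference 2.0, SE 0.20), and Fn1, fibronectin, stood at 586 ± 111 against 117 ± 24.0 CPM (log2 difference 2.14). Postn, periostin, was higher by 4.75.

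Basement membrane genes rose less uniformly, with 10 of 15 higher and 1 lower (Agrn) and a median of 1.13. Lama4, a laminin chain of vessel walls, stood at 74.3, 72.0 and 63.4 CPM against 4.01, 3.34 and 3.19 CPM (log2 difference 4.13, SE 0.16, adjusted p = 1.23e-08), and Col4a5 was higher by 3.58. The main collagen IV genes did not pass the test without a replicate block: Col4a1 stood at 197, 801 and 209 CPM against 196, 326 and 145 CPM (log2 difference 0.69, SE 0.46, adjusted p = 0.232), and the log2 difference of Col4a2 was 0.90 (SE 0.42, adjusted p = 0.0904). With the tagged sample as a replicate block both passed, Col4a1 at 0.47 (adjusted p = 0.00749) and Col4a2 at 0.77 (adjusted p = 4.2e-05). Both also passed without the filter on low counts, and Col4a2 without tagged sample 1 and with thinned sums (adjusted p = 0.0495 and 0.0417). The Col4a1 value of tagged sample 2 rested on a single cell with 738 Col4a1 UMIs, 12982 CPM of that cell. Without this cell, an alternative added after the values were seen, tagged sample 2 stood at 339 CPM and the log2 difference was -0.017 (adjusted p = 0.967). This cell also held 273 Col4a2 UMIs. Col4a2 stood at 350 CPM in tagged sample 2 with the cell and at 181 CPM without it. Its log2 difference without the cell was 0.37 (adjusted p = 0.287, edgeR without a replicate block). The same cell held 439 Sparc UMIs; Sparc, a collagen-binding protein, was higher by 0.78 with the cell (adjusted p = 0.0339) and by 0.61 without it (adjusted p = 0.0412). The Sparc call was lost under DESeq2 (adjusted p = 0.161), without tagged sample 3 (0.0828) and against the other cells without erythroid cells (0.641). The 6 parietal endoderm markers summed to 682, 1473 and 700 CPM in the mesoderm cells and to 1070 CPM in tagged sample 2 without that cell.

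Of the secreted ligands, 22 of 30 were higher and 5 lower, with a median of 2.39. Bmp4, a growth factor needed for extraembryonic mesoderm and blood formation, stood at 177, 136 and 124 CPM against 10.8, 6.65 and 8.66 CPM (log2 difference 3.88, SE 0.19, adjusted p = 4.77e-08). Bmp5 stood at 41.3 ± 4.59 against 1.58 ± 0.349 CPM (log2 difference 4.55). Kitl, the ligand of the Kit receptor of blood progenitors, stood at 72.6, 136 and 139 CPM against 10.2 ± 1.59 (log2 difference 3.34). Angpt1, the ligand of the endothelial receptor Tek, and Vegfa stood at 37.0 ± 8.54 and 93.5 ± 6.76 CPM, against 1.77 ± 0.189 and 17.0 ± 3.46 CPM (log2 differences 4.19 and 2.28). Ptn, pleiotrophin, was higher by 4.66 but uneven, at 14.4, 99.0 and 68.2 CPM. Its relative Mdk, midkine, stood at 642 ± 51.1 CPM and was higher by 0.98. The lower ligands included Apln and Thpo; Pdgfb had 0 UMIs in the mesoderm cells.

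Among inhibitors and binding proteins, 8 of 19 were higher and 2 lower. Igfbp2, which binds insulin-like growth factors, stood at 562, 552 and 558 CPM against 25.3, 28.4 and 19.97 CPM (log2 difference 4.32, SE 0.12, adjusted p = 4.2e-09). Igfbp4, of the same family, did not pass the test (147 ± 14.8 and 120 ± 22.7 CPM, log2 difference 0.12, adjusted p = 0.491) and was lower by -0.49 against the other cells without erythroid cells (adjusted p = 0.00341). Timp2, an inhibitor of matrix proteases, was higher by 3.37.

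Of 44 receptors, 35 were higher and 2 lower (Kdr and Lrp5), with a median of 1.76. Nrp1, a co-receptor of semaphorins and VEGF, stood at 220, 307 and 263 CPM against 20.9, 18.2 and 19.4 CPM (log2 difference 3.57, SE 0.13, adjusted p = 1.23e-08). Pdgfrb, a receptor of mural and stromal cells, stood at 39.2 ± 6.46 against 1.87 ± 0.494 CPM (log2 difference 4.22), and Ednrb, an endothelin receptor, at 59.3 ± 15.5 against 2.98 ± 0.525 (log2 difference 4.13). Kdr, the VEGF receptor of endothelium, stood lower by -1.50. Tek, also known as an endothelial receptor, stood at 43.8 ± 7.44 CPM in the mesoderm cells, at 107 ± 6.38 CPM in the endothelial gate and at 1.23 ± 0.542 CPM in the visceral endoderm gate; the 8 endothelial markers summed to 135 to 159 CPM in the mesoderm cells, and Cdh5, which the rule held down, had 3 UMIs.

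The Hedgehog pathway carries signals through the receptor Ptch1 and the activator Smo, whose movement into the primary cilium turns Gli proteins on; Ptch1, Hhip and Gli1 are also its targets. Of 13 pathway genes tested, 10 were higher and 1 lower, with a median of 3.48. Ptch1 stood at 375, 430 and 412 CPM against 33.7, 26.0 and 29.5 CPM (log2 difference 3.59, SE 0.11, adjusted p = 6.73e-09). Hhip, a decoy receptor, stood at 34.6, 61.7 and 58.6 CPM against 1.02, 1.48 and 1.79 (log2 difference 4.96, SE 0.28, adjusted p = 1.45e-07), and Gli1 at 12.6 ± 1.64 against 0.45 ± 0.0865 CPM (log2 difference 4.59). The co-receptors Boc, Gas1 and Cdon were higher by 4.17, 3.48 and 3.06, and Gli2 and Gli3 by 4.14 and 3.48, while Smo was higher by 1.86. The ligand lay elsewhere: Ihh had 0 UMIs in the mesoderm cells and stood at 33.3 ± 5.40 CPM in the visceral endoderm gate.

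Tdo2 went the other way from most tested genes of its pathway. It catalyses the first step of the breakdown of tryptophan to kynurenine. Of 13 tested genes of tryptophan uptake and the kynurenine pathway it was the only gene called higher, while 10 were lower. The median was -3.08, against -2.57 without the filter on low counts and -1.19 with all sums thinned to the smallest. That filter keeps genes that are high in either set, so these counts are a description only. Against the contractile cells 3 genes of the list were tested and 0 were called. Qprt, which makes the NAD precursor nicotinate mononucleotide, stood at 1.80 ± 0.572 CPM in the mesoderm cells, 34.8 ± 7.78 in all other cells and 88.3 ± 7.57 in the visceral endoderm gate (log2 difference against all other cells -4.44, SE 0.34). The amino acid transporters Slc7a8 and Slc3a2 were lower by -4.70 and -1.38, and Kmo, the next oxidase after kynurenine, had 2 UMIs in the mesoderm cells. Wars, the tryptophanyl-tRNA synthetase, did not pass the test (40.3 CPM in mesoderm against 34.3 CPM, log2 difference 0.06).

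Of the family of Pmp22, 6 of 8 genes were higher and 0 lower. Tmem47 was higher by 3.01 and Emp2 by 2.51, both far below Pmp22 in level (58.1 ± 18.9 and 40.4 ± 7.91 CPM, UMIs of the 3′ end, not per length).

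Contractile and cytoskeletal genes fell into 2 groups. Of 26 smooth muscle and actin genes, 24 were higher and 1 lower, with a median of 1.91. Acta2, smooth muscle actin, stood at 880, 1307 and 1006 CPM against 46.2, 47.6 and 38.2 CPM (log2 difference 4.42, SE 0.16, adjusted p = 9.33e-09), and Tagln, transgelin, at 367 ± 33.2 against 21.2 ± 7.82 CPM (log2 difference 3.93). The cells thus held Acta2 and Tagln without Cnn1 or Myh11, which had 0 UMIs. Of 16 cardiac-type genes outside the rule, 7 were higher and 3 lower, led by Cryab, a small heat shock protein of muscle (153 ± 25.6 against 13.4 ± 5.29 CPM, log2 difference 3.32) and Nebl (2.35); Myl4 and Myl7 did not pass the test (adjusted p = 0.258 and 0.967).

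Keratins and claudins parted. Krt8 and Krt18, the simple epithelial keratins, stood at 1245, 1103 and 1130 and at 1369, 1370 and 1201 CPM in the mesoderm cells, above the other cells (log2 differences 1.92 and 1.72, SE 0.11 and 0.13) and also above the visceral endoderm gate, at 481 ± 83 and 657 ± 131 CPM. Cldn7 and Cldn6, of tight junctions, were lower by -4.89 and -3.93. Across the 13 epithelial and mesothelial genes tested, 5 were higher and 6 lower. Of 23 adhesion genes, 18 were higher and 1 lower, led by Cdh11, a cadherin of mesenchyme (116 ± 15.4 against 4.40 ± 1.90 CPM, log2 difference 4.58), and Cd248 (4.47).

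Primary cilium genes were higher by smaller amounts. Of 55 structural genes tested, 36 were higher and 0 lower, with a median log2 difference of 0.96. Rab34, which acts early in cilium formation, stood at 87.8, 95.2 and 85.7 CPM against 17.2, 11.3 and 10.8 CPM (log2 difference 2.60, SE 0.17, adjusted p = 3.33e-07), and the transport gene Ift74 at 73.1 ± 6.61 against 13.8 ± 1.47 CPM (log2 difference 2.22). Ift20 and Arl3 were higher by 0.58 and 1.23. Of 9 tested genes encoding factors of the Sp, Rfx and related families, 4 were higher and 0 lower: Sp5, Rfx3 (log2 difference 1.54), Rfx7 (0.64) and Sp3 (0.42). The Sp5 call is a description only, for the reason given below. The calls of Rfx7 and Sp3 were lost without tagged sample 2 (adjusted p = 0.0977 and 0.231), and that of Sp3 also without tagged sample 1 (0.0767) and without the filter on low counts (0.121). Sp1, a general activator, stood at 34.3 ± 2.82 against 26.5 ± 2.99 CPM and did not pass the test.

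**Figure D2:**
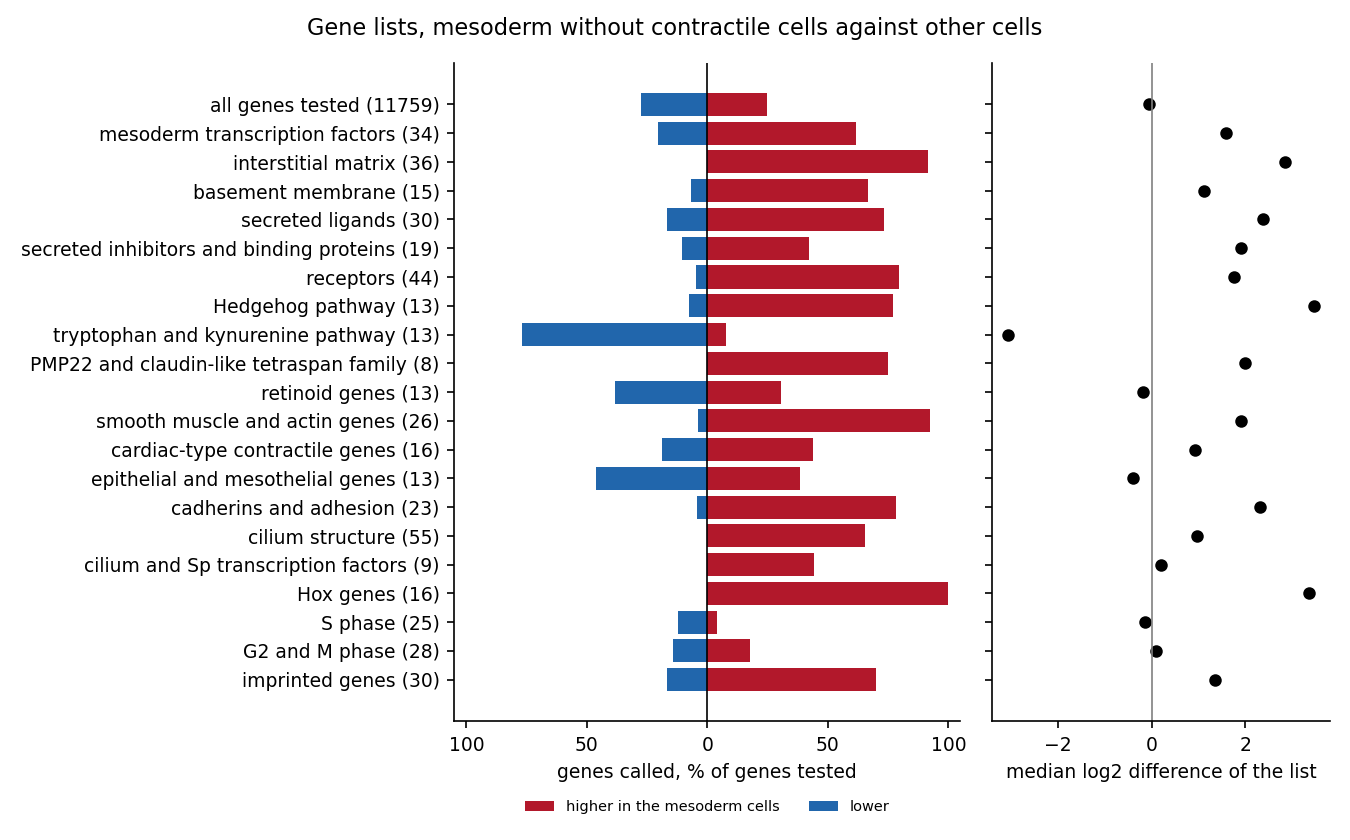
Gene lists in the mesoderm cells against the other cells. Left, the percentage of tested genes called higher (red) or lower (blue), with the number tested in brackets; right, the median log2 difference. All tested genes, at the top, show 24.6% higher and 27.5% lower. The interstitial matrix list and the 16 Hox genes that passed the filter lie almost wholly to the higher side. The 13 tryptophan genes that passed it lie mostly to the lower side.

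Cell cycle genes gave few calls. Of 25 S phase genes 1 was higher and 3 lower (median -0.14, and 0.053 when scaled by library size), and of 28 genes of G2 and M phase 5 were higher and 4 lower (median 0.08). Pcna and Mcm2, of the replication machinery, were lower by -0.42 and -0.50, calls that were lost under library size scaling (adjusted p = 0.149 and 0.0722) and against the other cells without erythroid cells (0.702 and 0.275). Anln, which acts in cytokinesis, was higher by 0.76, while Gmnn, Slbp, Hells, Birc5 and Top2a did not pass the test. Of 30 imprinted genes, 21 were higher and 5 lower (median 1.36). H19 and Mest stood at 1475 ± 64.2 and 1244 ± 84.9 CPM (log2 differences 0.87 and 2.98), and Nnat was higher by 4.2, although uneven at 279, 623 and 500 CPM.

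Of 13 retinoid genes, 4 were higher and 5 lower, shares near those of all genes tested (24.6% and 27.5%). The receptor gene Rarg was higher by 3.33, and Rbp4, the retinol carrier of plasma, lower by -4.79 (163, 156 and 209 CPM against 3951, 5532 and 3376). Rbp4 belongs with the largest differences in the lower direction, which were genes of endoderm absorption and plasma proteins: Slc2a2 (-5.23), Folr1 (-5.12), Cubn (-4.68), Apoa1 (-4.63) and others, all highest in the visceral endoderm gate, where Apoa1 stood at 7581 ± 565 CPM. In the higher direction, genes with large differences beside those given above were Fam162b (log2 difference 5.50, 58.6 ± 14.7 against 1.16 ± 0.371 CPM), Ptges, a prostaglandin E synthase (4.80), and Colec11, a collectin (4.64).

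The 40 contractile mesoderm cells were the nearest set. Ttn, Myh6 and Tnnt2 parted the sets by rule, and the contractile cells were uneven in them: Ttn stood at 386, 3.79 and 16.7 CPM and Myh6 at 177, 0 and 0 CPM in tagged samples 1, 2 and 3. Of 7020 genes tested outside the rule, 5 were higher in the mesoderm cells under the contractile bound (0.0712%) and 13 lower (0.185%). That was 0.256% in all, and 541 genes had an unadjusted p under 0.05. With the tagged sample as a replicate block the counts were 15 and 23, and leaving out tagged sample 1, 2 or 3 gave 13, 3 and 2 higher and 21, 11 and 6 lower. Hba-x, a globin, stood at 7157 CPM in the contractile sum of tagged sample 2 against 1156 and 1704 CPM in the others, and its part in these counts was not tested.

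Heart muscle genes made up much of the lower group. Of 9 cardiac-type genes outside the rule, 5 were lower and 0 higher (median -1.92). Myl7, the atrial myosin light chain, stood at 37.1, 21.2 and 15.1 CPM in the mesoderm cells and at 943, 83.4 and 154 CPM in the contractile cells (log2 difference -4.03, SE 0.70, adjusted p = 0.0238). Tnnc1, a troponin, stood at 8.44, 14.1 and 9.06 against 200, 53.1 and 88.8 CPM (-3.38, adjusted p = 0.00383), and Tnni1 at 35.5, 66.2 and 59.2 against 279, 131 and 220 CPM (-1.92, adjusted p = 0.00447). Myl4 was lower by -4.82 and Nebl, a nebulin relative, by -1.76. The groups did not overlap in any of these 5 genes, although the bound on contractile UMIs chose cells for related transcripts. The calls of Myl7, Tnni1 and Nebl were lost without tagged sample 3 (adjusted p = 0.0601, 0.0555 and 0.0601), and that of Nebl also without tagged sample 1 (0.0664).

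The other lower genes were not muscle genes. Cdkn1c, an imprinted inhibitor of the cell cycle, stood at 112, 114 and 112 CPM in the mesoderm cells under the contractile bound and at 467, 305 and 257 CPM in the contractile cells (log2 difference -1.58, SE 0.18, adjusted p = 0.00306). It was called lower under every alternative run. Map1b, a microtubule-binding protein, was lower by -1.25, and Hoxb4 and Hoxb2 by -1.51 and -1.0; the Hoxb4 call was lost without tagged sample 2 or 3 and with thinned sums (adjusted p = 0.3, 0.0532 and 0.0622). Prrx2, Wnt2, Gata5 and the non-coding Kcnq1ot1 complete the 13 and are named after their values were seen (-2.08, -2.08, -2.0 and -0.88).

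Of the higher genes, Ccnd1, the cell cycle activator cyclin D1, stood at 168, 242 and 197 CPM against 87.3, 89.1 and 92.5 CPM in the contractile cells (log2 difference 1.20, SE 0.16, adjusted p = 0.00575). Fam162b stood at 45.6, 74.6 and 55.5 against 13.6, 17.1 and 13.0 CPM (2.04, adjusted p = 0.00974). Tmem158, Krt19, a keratin of mesothelium and other epithelia, and Lama4 were higher by 1.79, 1.52 and 1.28. Without tagged sample 3 all 5 calls were lost (adjusted p = 0.0555 to 0.177), and without tagged sample 2 those of Krt19 and Lama4 (0.096 and 0.3). The Lama4 call was also lost with the stricter mesoderm gate (0.0578), with thinned sums (0.0575) and with the wider contractile bound (0.158).

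Pmp22, Acta2 and Ptch1, all far above their levels in the other cells, did not pass the test between these sets. Pmp22 stood at 899 ± 51.3 and 892 ± 137 CPM (log2 difference 0.03, SE 0.10), Acta2 at 1064 ± 219 and 904 ± 137 CPM (0.26, SE 0.13) and Ptch1 at 406 ± 28.2 and 362 ± 109 CPM (0.19, SE 0.16). Tdo2 stood at 302 ± 43.1 against 608 ± 283 CPM (-0.98, SE 0.23, adjusted p = 0.124), and every contractile sum except that of tagged sample 2 lay above the 3 mesoderm sums. Of 33 cilium genes, 24 smooth muscle and actin genes and 25 S phase genes tested here, 0 were called in either direction, with medians of 0.15, 0.09 and 0.01. Of 9 Hox genes, 2 were lower and 0 higher with a median of 0.53, and the median was -0.53 with all sums thinned to the smallest. Hoxc8 and Hoxc9 pointed the other way from Hoxb2 and Hoxb4, at 220 ± 61.4 against 80.1 ± 57.3 CPM and 30.2 ± 10.4 against 4.35 ± 4.65 CPM (log2 differences 1.48 and 2.79, adjusted p = 0.0845 and 0.0532), short of the threshold.

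**Figure D3:**
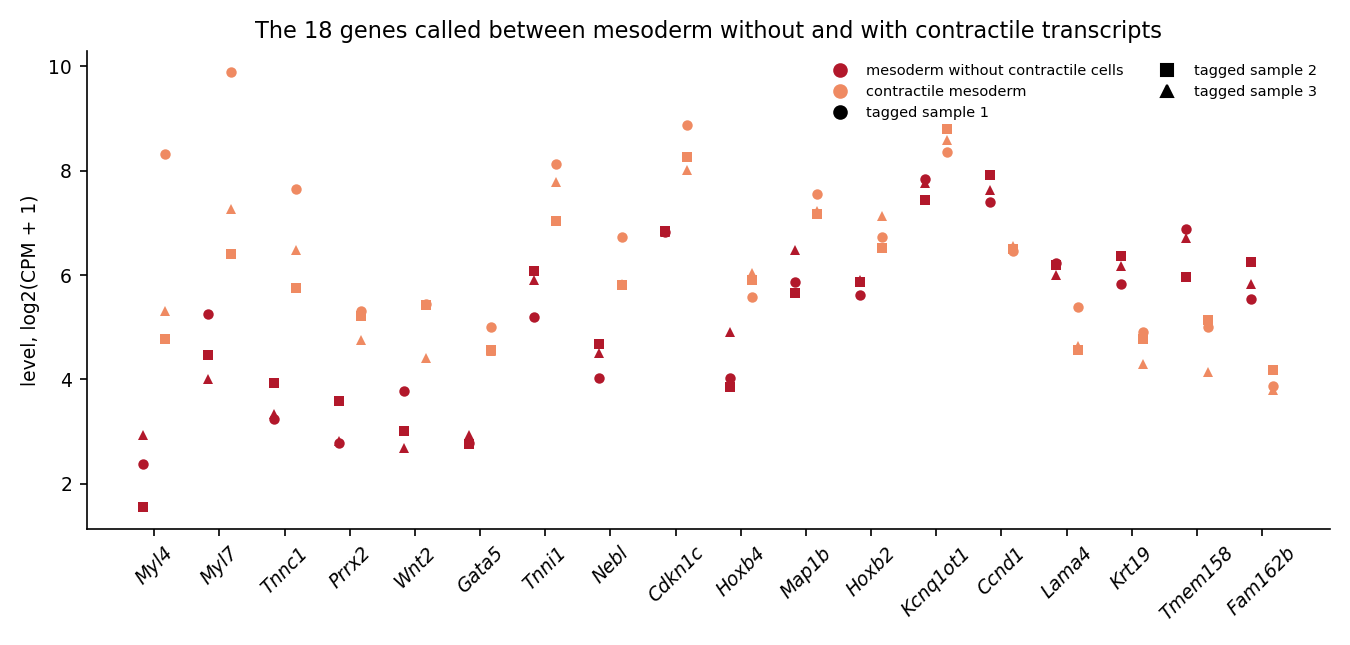
The 18 genes called between the mesoderm cells under the contractile bound (red) and the contractile mesoderm cells (orange), as log2(CPM + 1), with 1 point per tagged sample. From the left, Myl4 to Kcnq1ot1 are lower and Ccnd1 to Fam162b higher in the cells under the bound. Tagged sample 1 of the contractile cells lies highest in Myl4, Myl7 and Tnnc1.

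Among themselves the 126 cells varied most, at a common depth, in Col4a1 (variance 69.8 times the mean), which rests on the single cell described above. Next came the linker histone H1f5 (16.9), Col4a2, the glucose transporter Slc2a3 (15.6), Sparc, Tmsb4x, Malat1, Csrp2, Phlda2, Jun, Fabp5 and Xist. At that depth Col4a2 had a median of 2 and a maximum of 65 UMIs, and Sparc 9 and 111. The single cell held 273 and 439 of their UMIs at full depth, and its part in their ranks was not tested. Clustering the cells gave 4 sub-clusters, all present in the 3 tagged samples. They are described only, because the same cells and genes made them, and they were given no cell type name. Sub-cluster 1 (46 cells) was led by histone genes such as H3c11 and H1f5, which are made in S phase, and by Nkx2-3 and Colec10. Sub-cluster 2 (41 cells) was led by genes of mitosis, among them Cenpe, Cenpf, Hmmr and Cdc20, and by Dnajb9 and Emp1. Sub-cluster 4 (17 cells) was led by Fabp3, Cd9, Col4a1, Lama1 and Aqp8, and these rested on tagged sample 2: there Col4a1 stood at 5109 CPM, against 217 and 178 CPM in tagged samples 1 and 3, and Cd9 at 529 CPM against 0 and 27.3. The sub-cluster held the cell with 738 Col4a1 UMIs, the single doublet call, and cells with up to 2.68% globin UMIs.

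Sub-cluster 3 held 22 cells, 11, 6 and 5 from tagged samples 1, 2 and 3, which is 35.5%, 12.8% and 10.4% of their mesoderm cells. It was led by Wnt4, Stmn2, Itga4, Unc5c, Lef1, Fbln2, Fgf3, Flt1, Flrt3 and Slc2a3, with Axin2, Wnt6, Rspo3 and Apcdd1 next. Itga4 was not higher in tagged sample 3, at 265, 126 and 12.4 CPM against 17.3, 16.0 and 14.0 CPM in the other mesoderm cells. Fbln2 was uneven in the sub-cluster, at 81.6, 5.46 and 24.8 CPM. Wnt4 and Wnt6 are Wnt ligands, Rspo3 a secreted enhancer of Wnt signalling, Lef1 a factor that acts with β-catenin, and Axin2, Apcdd1, Notum and Dkk1 are targets that dampen the pathway. Its depth (median 34147 UMIs) and mitochondrial share (1.67%) were close to those of all 126 cells.

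The levels in the 3 tagged samples show how far sub-cluster 3 lay from the other 104 cells. Wnt4 stood at 171, 246 and 37.3 CPM in it and at 1.44, 2.92 and 0.669 CPM in the others. Lef1 stood at 67.3, 92.9 and 37.3 CPM against 4.32, 2.19 and 5.35, and Axin2 at 51.0, 16.4 and 24.8 CPM against 0, 0.729 and 3.34. Dkk1 gave 20 UMIs in the 22 cells and 1 in the 104, and Notum 14 and 0, the latter with none in tagged sample 3. These genes do not overlap between the sets save Notum, but they also led the clustering.

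Tdo2 was low where Wnt4 was high. In sub-cluster 3 Tdo2 stood at 20.4, 21.9 and 49.7 CPM, against 419, 380 and 340 CPM in the other mesoderm cells. Of the 126 cells, 100 had a Tdo2 UMI and no Wnt4 UMI, 1 of them in sub-cluster 3, and 12 had Wnt4 without Tdo2, all in sub-cluster 3; 13 had both and 1 neither. Hhip was also lower there (8.16, 0 and 31.1 CPM against 53.3, 70.0 and 61.5), and Ptch1 less so (237, 268 and 193 against 473, 452 and 435). The genes of the rule were present throughout: Hand1 stood at 466 and 446 CPM in the sub-cluster and the other cells, Foxf1 at 98.3 and 167 and Vcan at 247 and 391. Pmp22 stood at 1140 and 839 CPM.

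**Figure D4:**
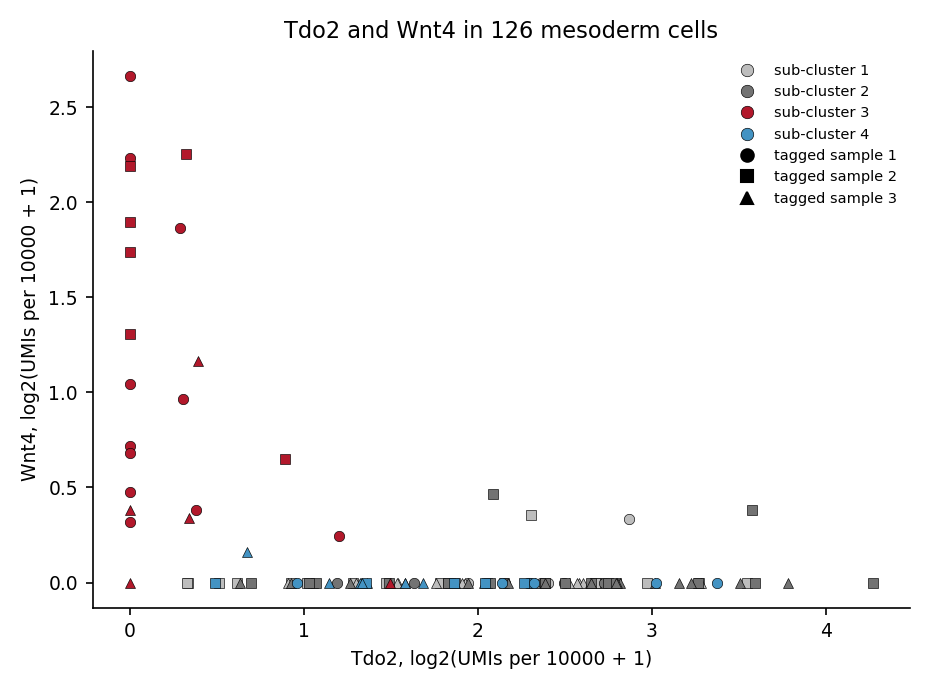
Tdo2 and Wnt4 in each of the 126 mesoderm cells, as log2(UMIs per 10000 + 1), coloured by sub-cluster and shaped by tagged sample. Of sub-cluster 3, in red, 12 cells lie on the Wnt4 axis, 8 have UMIs of both genes, 1 has Tdo2 alone and 1 neither. Most of the 104 other cells lie along the Tdo2 axis, and 5 of them also have Wnt4 UMIs. Both genes took part in the clustering.

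SP5, a zinc finger factor named in the series title together with SP8, is a known target of Wnt signalling. Sp5 gave 12 UMIs in the mesoderm cells (5, 4 and 3 in the 3 tagged samples) and 22 in the other 1614 cells, 4.22, 2.57 and 1.81 CPM against 0.387, 0.321 and 0.128 CPM. All mesoderm sums lay above all of the others (log2 difference 3.13, SE 0.63, adjusted p = 0.00151, edgeR). Sp5 was called in every alternative in which it passed the filter on low counts, with log2 differences of 2.72 to 3.46 and adjusted p up to 0.0133. It passed that filter through the mesoderm sums, where it is high, so these calls are a description only. The pooled ratio to the other cells was 10.3 (95% exact interval 4.65 to 21.8, counting error only) and to the visceral endoderm gate, with 8 UMIs in 435 cells, 9.01 (3.39 to 25.4). The contractile cells had 0 Sp5 UMIs, which allows up to 1.89 CPM, beside 1.81 to 4.22 CPM in the mesoderm sums; the 95% exact interval of the ratio began at 1.001. Sp8 gave 1 UMI in the mesoderm cells and 3 in the others.

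All 12 Sp5 UMIs lay in 7 cells of sub-cluster 3. That is 31.8% of its 22 cells (95% exact interval 13.9 to 54.9%), and 0 of the other 104 mesoderm cells, which allows a share of up to 2.88% with an Sp5 UMI. In the visceral endoderm gate, at a greater median depth (57995 UMIs), 1.84% of cells had an Sp5 UMI. Sp5 and the genes of a Wnt list had taken part in the clustering, so the cells were clustered again without the 20 genes of that list, an alternative chosen after the sub-clusters had been seen. A cluster of 19 cells came out, all of them from sub-cluster 3, with the same 7 cells and 12 Sp5 UMIs. The 30 cells that missed only the bound on Foxf1 and Vcan had 0 Sp5 UMIs, with Wnt4 at 46.3 CPM and Axin2 at 12.3 CPM summed over them. Their sum of 972524 UMIs is too small to tell this 0 from the Sp5 level of the mesoderm cells, 2.73 CPM.

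The Wnt list was drawn up after the leading genes of sub-cluster 3 were known, and supports nothing by itself. Of its 16 genes other than Sp5 with at least 3 UMIs in the mesoderm cells, 13 were higher in sub-cluster 3, beside 3829 of 8197 among all genes with at least 30 UMIs. The 3 others were Ccnd1 (156 CPM in it against 217), Lgr4 (3.60 against 17.97) and Fzd7 (5.99 against 7.02). The floors of 3 and 30 UMIs differ, so these shares are not alike. The counts are also pooled over tagged samples. Of the 13, Znrf3 was lower in sub-cluster 3 in tagged sample 2 (5.46 against 8.02 CPM). Tcf7 (12.4 against 16.7 CPM) and Nkd2 (0 against 2.01) were lower there in tagged sample 3, where Notum was at 0 in both sets. Cilium genes did not go with the sub-cluster: 21 of 40 were higher in it, with a median log2 ratio of 0.00 (all genes -0.02), and Arl13b, a cilium GTPase, stood at 61.1 against 44.9 CPM and Ift88 at 20.4 against 18.5. Of 34 interstitial matrix genes 8 were higher (median -0.35) and of 10 Hox genes 2 (median -0.39).

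**Figure D5:**
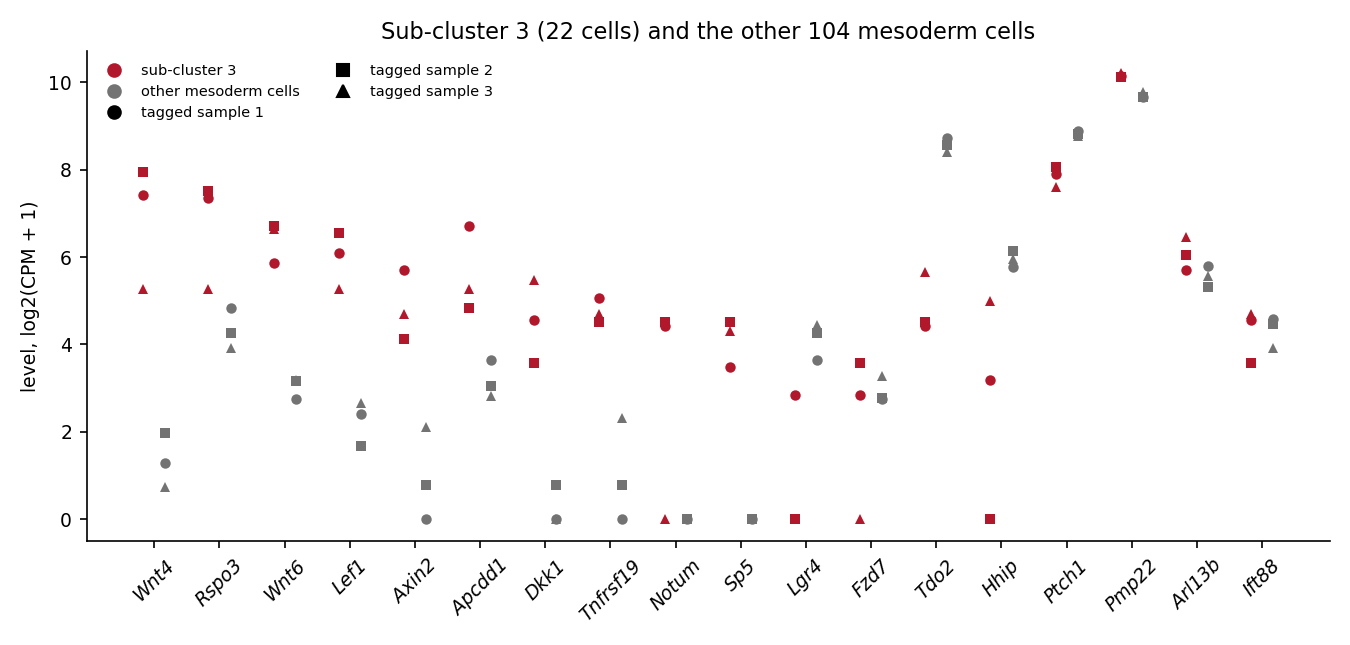
Levels in sub-cluster 3 (red, 22 cells) and the other 104 mesoderm cells (grey) as log2(CPM + 1), with 1 point per tagged sample. Wnt4 to Sp5 lie higher in sub-cluster 3 except Notum in tagged sample 3, at 0 in both sets, and Sp5 is at 0 in the grey set; Tdo2, Hhip and Ptch1 lie lower and the cilium genes Arl13b and Ift88 overlap.

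Since Sp5 went with Wnt-linked genes, the RefSeq promoter windows of the Wnt list (GRCm38.p6, 250 bases before to 50 after a start site) were searched for CTTTGAT or CTTTGAA on either strand, the core that TCF and LEF factors bind. Of the 20 genes 14 had a window, and 4 of them (Dkk1, Sp5, Sp8 and Tnfrsf19) held the motif in at least 1 window. By windows, 4 of the 22 windows of the list held it, and 8.65% of all 32851 windows. Sp5 and Dkk1 are shown because sub-cluster 3 held all 12 Sp5 UMIs and all but 1 of the Dkk1 UMIs of the mesoderm cells. Their windows are chr2:70474673-70474972 (plus strand) and chr19:30549447-30549746 (minus strand), each covering the start of the gene's first exon, with the motif, in capitals, beginning at -104 and -117 from the start site. A match is a description of the sequence and not a bound site.
Sp5: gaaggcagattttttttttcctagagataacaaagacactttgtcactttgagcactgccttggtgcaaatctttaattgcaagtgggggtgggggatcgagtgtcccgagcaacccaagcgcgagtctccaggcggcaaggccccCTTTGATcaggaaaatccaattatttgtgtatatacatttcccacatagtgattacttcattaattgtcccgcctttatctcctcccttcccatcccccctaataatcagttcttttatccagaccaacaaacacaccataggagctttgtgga
Dkk1: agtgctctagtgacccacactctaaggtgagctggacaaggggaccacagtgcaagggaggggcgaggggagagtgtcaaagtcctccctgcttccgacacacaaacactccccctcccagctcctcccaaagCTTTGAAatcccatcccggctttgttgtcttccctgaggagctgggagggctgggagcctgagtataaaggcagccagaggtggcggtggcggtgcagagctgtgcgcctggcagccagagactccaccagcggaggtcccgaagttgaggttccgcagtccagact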

How the data were processed

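The data are gene by cell matrices of UMI counts, deposited by the authors for 3 tagged samples of a pooled 10x library; per the file headers they were written by Cell Ranger 6.1.2, and the submitters' processing notes name GRCm38 and mm10 with no role. The quality filter (500 genes, 10% mitochondrial UMIs) removed 77 cells. Mesoderm cells were chosen by the bounds given above, and the members and gene lists were chosen with earlier results of these data known. Nothing says that tagged samples are single embryos, so p-values measure only the spread between tagged samples, which may be technical.

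For each cell set, the counts of a tagged sample were added up, and the sums were compared with edgeR 4.0.16 (quasi-likelihood test, TMM scaling, filterByExpr, Benjamini-Hochberg threshold 0.05) in R 4.3.3, without a replicate block. The 17 rule genes and 13 mitochondrial genes were not tested. The same 3 tagged samples supply both sets, which pairs the sums by number; the correlation of deviations of same-numbered sums was 0.0828, 0.113 and 0.0745 against the other cells, and 0.126, -0.0443 and 0.0317 against the contractile cells. Levels are CPM of each sum, unscaled; the counts are of 3′ ends, so levels are not per length. Doublet calls (Scrublet, in scanpy 1.11.5, 89 of all filtered cells) were kept in, and left out as an alternative. Sub-clusters came from 1000 variable genes, 15 components, 10 neighbours and a Leiden resolution of 0.5.

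Named genes were the rule genes and markers, in each list the 3 highest and the 2 most different with at least 20 CPM, the 10 largest differences in each direction from the other cells with at least 50 CPM, up to 8 in each direction from the contractile cells, Sp5 and Sp8, and the 12 most variable genes. Other genes were named after their values were seen. In simulated counts the test against other cells recovered 51.7% of 87 changes of 1 log2 unit and 89.1% of 92 changes of 2, among 11737 genes; the test against contractile cells recovered 76.8% of 82 and 97.6% of 83, among 7033. Of the unchanged genes, 5 were called in the former and 10 in the latter (0 with DESeq2). Whether these recovered shares hold for the real sums, where genes such as Myl7 were uneven over the contractile sums, was not tested. Alternatives were the replicate block, DESeq2 1.42.0, library size scaling, no filter, thinned sums, each tagged sample left out, a stricter cell filter (1000 genes, 5% mitochondrial), a stricter mesoderm gate (0.06%, 6 UMIs), other cells without erythroid cells, a wider contractile bound (under 3 against 10 or more UMIs) and, added after the values were seen, leaving out the cell with the most Col4a1 and clustering without the Wnt list.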

Additional observations from a re-analysis of the deposited data

Results flagged for a closer look

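Calls of cells by sex-linked transcripts were used in no comparison above. Among mesoderm cells called by Xist and Y-linked UMIs, 36.0%, 56.7% and 38.5% in tagged samples 1, 2 and 3 were Xist-positive. These calls stand out because they show Xist-positive and Y-positive cells side by side in every tagged sample.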

How the results depend on the processing

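Against the other cells the counts of genes called stayed within 1.5 times under each alternative except thinned sums (1891 higher, 1861 lower); with the tagged sample as replicate block, 2998 were higher and 3398 lower, and leaving out tagged samples gave 2176 to 2460 higher and 2355 to 2801 lower. Against the contractile cells the counts moved more. The higher and lower genes numbered 15 and 23 with the replicate block, 70 and 92 without the filter, 9 and 24 without doublet calls, 10 and 30 with the stricter gate, and 13 and 27 with the wider contractile bound; 10 were higher with DESeq2 and 8 with thinned sums. Leaving out tagged samples gave 2 to 13 higher and 6 to 21 lower. The stricter gate left 6.01% of cells as mesoderm. Of 117 named genes against the other cells 89 kept their direction and side of the threshold under all alternatives, and 4 of 13 against the contractile cells.

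The cause of the following changes of sign was not tested. Without the filter the cardiac-type median was -0.13, Wars -0.033 and Slbp -0.035. With library size scaling the S phase median was 0.053, Gmnn 0.045, Birc5 0.11 and Myl7 0.12. Without erythroid cells the S phase median was 0.10, Gmnn 0.024 and Igfbp4 -0.49. With thinned sums Wars was -0.12 and Sp1 -0.084, and the Hox median against contractile cells -0.53. Myl7 was 0.12 with the replicate block, 0.019 without doublet calls and 0.14 with the stricter gate. Against contractile cells the retinoid median was 0.11 with the wider bound and the smooth muscle median -0.042 with the stricter gate. Col4a1 was -0.017 without its highest cell.

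The 3 tagged samples, and the 40 contractile cells with 515530 to 540485 UMIs a sum, limit the precision; 0 UMIs in the mesoderm cells allow a level of up to 0.682 CPM.

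Over the fits that leave out each tagged sample in turn, the log2 difference from the other cells ran from -0.014 to 0.16 for Wars, -0.26 to 0.011 for Gmnn, -0.028 to 0.34 for Hells, -0.23 to 0.33 for Myl7 and -0.14 to 0.78 for Fabp5.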

Other observations

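Further genes of sub-cluster 3 are given as values, with no test, since the clustering used these cells. Tagln stood at 580 CPM in sub-cluster 3 and at 314 CPM in the other 104 mesoderm cells, and Bmp4 at 201 and 129 CPM. Msx2, a homeobox gene, stood at 63.2, 76.5 and 93.2 CPM in the 3 tagged samples of the sub-cluster and at 4.32, 8.747 and 12 CPM in the others. Pitx1, another homeobox gene, stood at 149 and 44.4 CPM. Wnt5a stood at 92.3 and 40.7 CPM, and Epcam, an epithelial adhesion gene, at 70.7 and 8.42 CPM. Stmn2, a leading gene of the sub-cluster, was uneven, at 8.16, 16.4 and 255 CPM in the 3 tagged samples.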
